A study of Zea mays with 8 samples.

Results

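Lowered genes of the mop1 mutant hybrid are described here in immature maize ears: 29 of the 39498 gene IDs counted. They were chosen by the counts of the 4 hybrid libraries. A gene ID entered when its level in the higher of the 2 mutant libraries was at most 0.5 times that in the lower of the 2 wild-type libraries, and when that lower wild-type library was at 1 CPM or more (CPM, counts of a gene scaled to the gene total of its library). IDs numbered 460 or lower were left out by the same choice, as was a stretch of 378 ID numbers that begins 286 after Zm00001d002759 and ends 217 before Zm00001d003639. Only IDs of the Zm00001d style, 39324 of the 39498, were considered. After these limits, 20310 IDs could have met the rule, and 0.143% of them did.

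The libraries came from B73 and Mo17, the inbred parents, from their wild-type hybrid (WTF1, labelled Mo17/B73 and +/+) and from a hybrid homozygous for the mop1 mutation (mop1F1, labelled B73/Mo17 and mop1/mop1). Each of the 4 groups held 2 libraries of total RNA. No other treatment is labelled, and all 4 groups are of the same tissue. The parents are labelled wild type. The labels write the parents of the hybrids in opposite order and give neither the allele of mop1 nor the crosses, so an effect of the mutation cannot be told apart from one of cross direction or of a segment linked to it. Whether replicates were grown as separate plants is not labelled either. The p-values therefore reflect only how far libraries of the same group differ, which may be technical. In the fit of all 8 libraries this spread is shared over the 4 groups, also those not compared.

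In maize, mop1 encodes an RNA-dependent RNA polymerase. It copies transcripts of RNA polymerase IV into double-stranded RNA, from which the small RNAs that guide RNA-directed DNA methylation are cut. Methylation in the CHH context (H stands for any base but G) made by this pathway lies mostly beside genes and at the edges of nearby transposons, and mop1 is also known from paramutation, the heritable silencing of certain alleles. The title of the study names the start and upkeep of CHH methylation in maize and their effects on expression. The members are given by ID only: the deposited files do not pair IDs with names, and 0 of the 39324 IDs of this style were in the gene table used here. Roles of the members, markers of the tissue and of other cell types, and the mop1 transcript could therefore not be examined. In RNA from whole ears, fewer cells of a type and less RNA per cell cannot be told apart.

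Total gene counts ranged from 11723096 (WTF1 replicate 1) to 26199577 (WTF1 replicate 2), so that 1 count stood for 0.0382 to 0.0853 CPM. Among the 20310 IDs that could have met the rule, 21.7% differed more than 2-fold between the 2 wild-type hybrid libraries. The deposited tables of the hybrids carry the prefix GP1 (replicate 1 of both) or GP5 (replicate 2 of both), whose meaning is not given. The libraries of GP1 had 9.70% (WTF1) and 10.25% (mop1F1) ambiguous records, against 1.29% to 2.35% in the other 6 libraries. The part of this difference in the results was not tested. By the names of the tables, Mo17 reads were aligned to the Mo17 genome and hybrid reads to the B73 genome. This may enter every comparison with Mo17 below, also those with the parental mean or range, and its part was not tested.

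The same rule with the hybrids exchanged, which asks for genes higher in mop1F1, was met by 75 of 20050 IDs (0.374%), more than the 29 lowered genes. No lowered gene was called between mop1F1 and WTF1 in a fit of all 8 libraries (edgeR quasi-likelihood test, 0 of 29 with an adjusted p below 0.05, smallest adjusted p = 0.601). Over all tested IDs, 1 of 24511 was called lower in mop1F1 (0.00408%). At an unadjusted p below 0.05 (edgeR), 25 of the 29 were lower, compared with 0.681% of all tested IDs. DESeq2 called 3 of the 29 (Zm00001d038302, Zm00001d039589 and Zm00001d053091, adjusted p = 0.0131, 0.00102 and 2.33e-06), while it called 13 of the 24238 IDs with an adjusted p lower in mop1F1 (0.0536%). Because the rule used this contrast, nothing is read from the edgeR or the DESeq2 share. Leaving out a hybrid library can only loosen a rule that sets the higher mutant library against the lower wild-type one, so the count of genes could only rise. It gave 184 IDs without WTF1 replicate 1, 805 without WTF1 replicate 2, 1230 without mop1F1 replicate 1 and 357 without mop1F1 replicate 2, each time with all 29 among them.

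**Figure D1:**
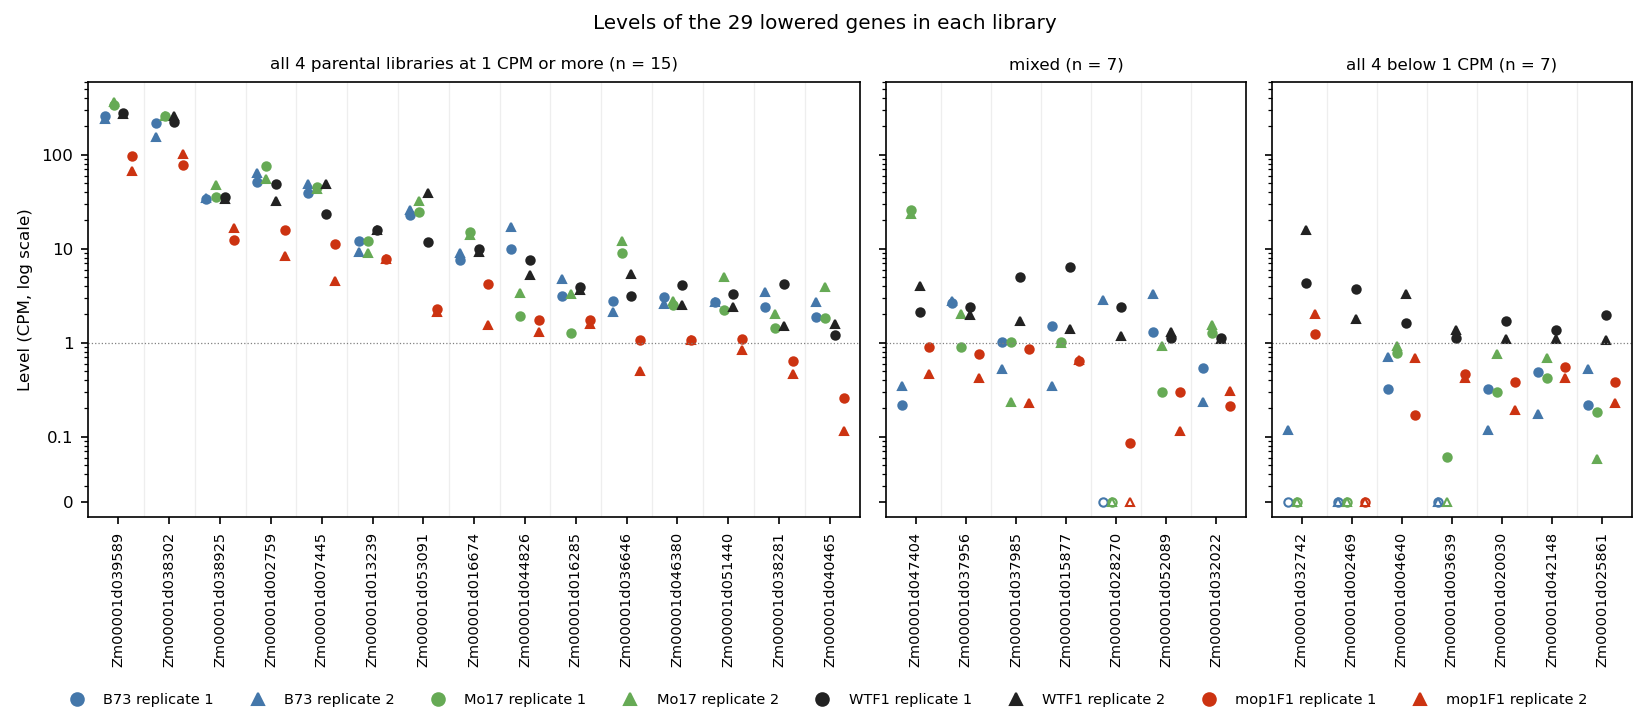
Level of each of the 29 lowered genes in the 8 libraries, in CPM on a log scale, with open symbols at the bottom for 0 counts; circles are replicate 1 and triangles replicate 2. The panels hold 15 genes with all 4 parental libraries at 1 CPM or more, 7 with parental libraries on both sides of 1 CPM and 7 with all 4 below it. The mop1F1 points lie below the WTF1 points in every column, as the rule requires.

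By their level in the parental libraries, whose values the rule did not use, the 29 genes fell into 3 sets. All 4 parental libraries were at 1 CPM or more for 15 genes (51.7%), compared with 92.2% of the IDs that could have met the rule. All 4 were below 1 CPM for 7 genes (24.1%, beside 0.596% of those IDs). The other 7 genes had parental libraries on both sides of 1 CPM. Genes low in the parents reached the minimum of 1 CPM through the wild-type hybrid, the group where they are high, so these shares describe the sets and nothing is read from them. In the wild-type hybrid, whose level the rule used, the lowered genes covered a wide range of CPM (not scaled to gene length). The lower WTF1 library was between 1 and 2 CPM for 14 of the 29 (7.04% of the IDs that could have met the rule) and at 10 CPM or more for 7 (68.1%).

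The order of the parents varied among the lowered genes. Both Mo17 libraries were above both B73 libraries for 8 of the 29 genes, compared with 41.1% of the IDs that could have met the rule, and both B73 libraries were above both Mo17 libraries for 5, compared with 31.1%. For the other 16 genes the libraries of the parents overlapped. Both Mo17 libraries had 0 counts for 3 genes (1.47% of the IDs that could have met the rule) and both B73 libraries for 2 (1.17%). The former were Zm00001d002469, Zm00001d028270 and Zm00001d032742, and the latter Zm00001d002469 and Zm00001d003639.

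Among the 15 genes at 1 CPM or more in every parental library, the hybrids are described against the parents. Mean WTF1 levels ran from 53.3% to 151.5% of the parental mean, with a median of 91.8%. Mean mop1F1 levels ran from 7.15% to 74.3%, with a median of 25.45%. For 14 of the 15, both mop1F1 libraries lay below all 4 parental libraries. Over all 29 genes this held for 16, beside 13.9% of the IDs that could have met the rule. The choice of low mutant values raises both counts by itself, so neither is a result about the lowered genes.

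**Figure D2:**
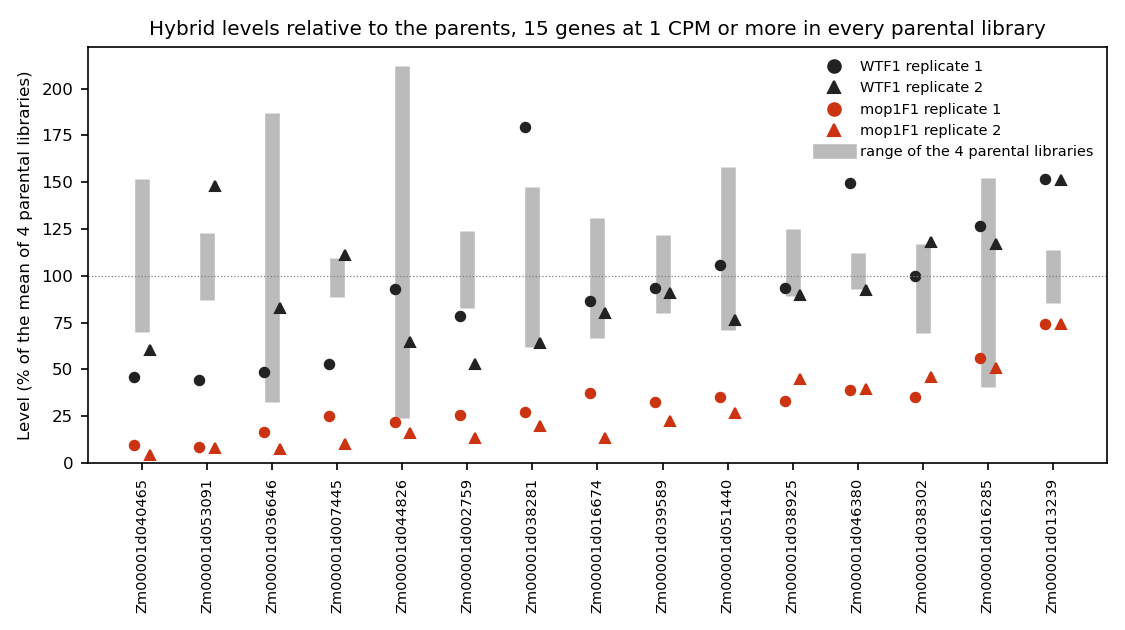
Hybrid levels of the 15 genes with every parental library at 1 CPM or more, in percent of the mean of the 4 parental libraries; grey bars span the 4 parental libraries, circles are replicate 1 and triangles replicate 2. The mop1F1 points (red) are under the grey bar for 14 genes, and the mean mop1F1 level runs from 7.15% to 74.3% of the parental mean.

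The highest CPM of them belonged to Zm00001d039589. It had 257.8 and 240.6 CPM in B73, 338.3 and 367.3 CPM in Mo17, 280.6 and 273.7 CPM in WTF1, and 97.8 and 67.4 CPM in mop1F1. Its wild-type hybrid libraries lay between the parents and both mutant libraries were below every other library. Between the hybrids edgeR gave a log2 fold change of -1.65 ± 0.31 (SE) with an adjusted p = 0.913.

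Zm00001d038302 was next, with 214.7 and 152.9 CPM in B73, 257.0 and 257.6 CPM in Mo17, 219.9 and 260.2 CPM in WTF1, and 77.3 and 100.9 CPM in mop1F1. Zm00001d038925 had 33.4 and 34.4 CPM in B73, 35.4 and 47.0 CPM in Mo17, 35.1 and 33.8 CPM in WTF1, and 12.4 and 16.8 CPM in mop1F1. Both genes were near the parental level in the wild-type hybrid, and they were 2.01- to 2.85-fold lower in the mutant in each pair of libraries with the same number. These 3 genes rested on at least 291 counts in every library.

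Zm00001d053091 had the lowest ratio of mutant to wild-type level within this set of 15. Its levels were 23.0 and 25.6 CPM in B73, 24.6 and 32.4 CPM in Mo17, 11.7 and 39.0 CPM in WTF1, and 2.30 and 2.11 CPM in mop1F1. The mutant libraries were alike, while the wild-type libraries lay on either side of the parental range. The log2 fold change between the hybrids was -3.45 ± 0.57 (SE), with an adjusted p = 0.601 (edgeR).

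Zm00001d007445 was also uneven in the wild-type hybrid, but its mutant libraries differed as well. It had 38.9 to 48.1 CPM in the parental libraries, 23.2 and 48.7 CPM in WTF1, and 11.1 and 4.49 CPM in mop1F1. Zm00001d002759 had 50.9 to 76.6 CPM in the parents, 48.4 and 32.5 CPM in WTF1, and 15.7 and 8.26 CPM in mop1F1, so that here the wild-type hybrid was below all parental libraries as well, as it was for 12.5% of the IDs that could have met the rule. The only other gene of the 29 with WTF1 below every parental library was Zm00001d040465. It had 1.19 and 1.56 CPM in WTF1, 0.255 and 0.115 CPM in mop1F1 (6 and 3 counts), and 1.81 to 3.93 CPM in the parents.

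Zm00001d013239 differed from the rest of this set in that its wild-type hybrid stood above the parents. It had 15.95 and 15.88 CPM in WTF1 and 7.83 and 7.79 CPM in mop1F1, against 8.96 to 11.97 CPM in the parental libraries. The mutant was below all 4 of them, at 74.3% of the parental mean. The replicates of either hybrid differed by less than 0.1 CPM.

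The exception to mutant levels under all parental ones was Zm00001d016285, named after its values were seen. It had 3.11 and 4.72 CPM in B73, 1.27 and 3.30 CPM in Mo17, 3.92 and 3.63 CPM in WTF1, and 1.74 and 1.57 CPM in mop1F1. Its mutant libraries lay above Mo17 replicate 1 and below the other 3 parental libraries. Zm00001d036646 had 2.79 and 2.10 CPM in B73, 8.93 and 12.1 CPM in Mo17, 3.16 and 5.38 CPM in WTF1, and 1.06 and 0.499 CPM in mop1F1. Between the parents its edgeR call depended on the fit: the adjusted p was 0.0621 with all 8 libraries, 0.0458 without a filter on low counts, 0.0241 and 0.0236 without mop1F1 replicate 1 or 2, 0.000606 without both hybrid libraries numbered 1 and 0.00079 with the parents alone. DESeq2 gave an adjusted p = 0.00608. Zm00001d036646 was not called by edgeR with DESeq2 size factors, the filter of 1 CPM in 2 libraries or the replicate block. Nor was it called when any 1 library of B73, Mo17 or WTF1 was left out. Zm00001d016674, Zm00001d046380 and Zm00001d051440 had 2.40 to 9.81 CPM in WTF1 and 0.845 to 4.25 CPM in mop1F1, and no library of the mutant reached the lowest parental one.

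The parents were compared in the fit of all 8 libraries, which takes part of its estimate of the spread from the hybrid libraries that the rule used. Of the 29 genes, 2 were called between B73 and Mo17 (edgeR, adjusted p below 0.05), 1 in each direction. Over all tested IDs, 10.4% of 24511 were called, 6.21% higher in B73 and 4.24% higher in Mo17, and the share among IDs that could have met the rule was 8.79%. The members' share of 2 in 29 was near this background. A fit of the parental libraries alone used no value of the rule. It called 7 of the 22 members that passed its filter on low counts, compared with 39.8% of 23444 IDs.

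The gene called higher in Mo17 was Zm00001d047404. It had 0.215 and 0.350 CPM in B73, 26.0 and 23.6 CPM in Mo17, 2.13 and 4.01 CPM in WTF1, and 0.893 and 0.461 CPM in mop1F1. B73 against Mo17 gave a log2 fold change of -6.37 ± 0.64 (SE) and an adjusted p = 0.000806 (edgeR). Both hybrids lay between the parents, on the side of B73, at 24.5% (WTF1) and 5.39% (mop1F1) of the parental mean. Per the names of the tables, reads of Mo17 were aligned to the Mo17 genome and those of the hybrids to that of B73. The part of this in the hybrid level was not tested.

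Zm00001d044826 was called higher in B73, with 9.83 and 17.1 CPM against 1.93 and 3.41 CPM in Mo17, which edgeR put at 2.39 ± 0.51 (SE) on the log2 scale with an adjusted p = 0.0245. It had 7.51 and 5.19 CPM in WTF1, between the parents, and 1.74 and 1.31 CPM in mop1F1, below both. The call was lost when B73 replicate 1 or 2 or Mo17 replicate 1 or 2 was left out (edgeR, adjusted p = 0.0664, 0.191, 0.202 and 0.0914). Zm00001d047404 was called in all 15 alternative fits.

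The 7 genes with all parental libraries below 1 CPM had levels in WTF1 above every parental library. Over all 29 genes, WTF1 was above all 4 parental libraries for 9, compared with 13.8% of the IDs that could have met the rule. For the 7 genes this follows from the rule, which asks for at least 1 CPM in WTF1.

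Zm00001d002469 had 0 counts in all 4 parental libraries and in both mop1F1 libraries. In WTF1 it had 44 and 47 counts, 3.75 and 1.79 CPM. Wild-type hybrid libraries were thus the only ones with counts of it. A count of 0 allows up to 3 counts, or 0.115 to 0.181 CPM in these 6 libraries, which covers counting error only. Against that limit in each mop1F1 library, with WTF1 taken as counted, the gene was 29.4-fold lower in the GP1 pair and 15.6-fold lower in the GP5 pair. With counting error of both libraries, the 95% exact interval of the fold began at 22.93 in GP1 and 12.17 in GP5.

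A pair of genes, named after their values were seen, stood above every parental library in the mutant too, as 10.1% of the IDs that could have met the rule did. Zm00001d032742 had 0 counts in 3 parental libraries and 0.117 CPM (2 counts) in B73 replicate 2. It had 4.27 and 15.7 CPM in WTF1 and 1.23 and 2.04 CPM in mop1F1. Zm00001d003639 had 0 counts in 3 parental libraries and 1 count in Mo17 replicate 1. Its levels were 1.11 and 1.37 CPM in WTF1 and 0.468 and 0.422 CPM in mop1F1, on 13 to 36 and 11 counts per library. In both genes the mutant lay between the parents and the wild-type hybrid.

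Of the 7 genes with parental libraries on both sides of 1 CPM, Zm00001d028270 had the lowest ratio of mutant to wild-type level. It had 2.86 CPM (49 counts) in B73 replicate 2 and 0 counts in the other 3 parental libraries, so the B73 libraries did not agree. WTF1 had 2.39 and 1.18 CPM, and mop1F1 had 0.0851 CPM (2 counts) in replicate 1 and 0 counts in replicate 2. In the GP1 pair it was 28.1-fold lower in the mutant (95% exact counting interval 7.08 to 243.2). In the GP5 pair it was 10.3-fold lower with 0 counts taken as 3, and the 95% exact counting interval began at 7.87.

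Zm00001d052089 and Zm00001d032022 were close to the minimum of 1 CPM. The former had 1.29 and 3.26 CPM in B73, 0.301 and 0.925 CPM in Mo17, 1.11 and 1.30 CPM in WTF1, and 0.298 and 0.115 CPM in mop1F1, the last on 3 counts. The latter had 0.537 and 0.233 CPM in B73, 1.27 and 1.56 CPM in Mo17, 1.11 and 1.11 CPM in WTF1, and 0.213 and 0.307 CPM in mop1F1. The parents leaned in opposite directions in these genes. In the fit of all libraries neither was called between the parents (edgeR, adjusted p = 0.23 and 0.187). With the parents alone both were called (edgeR, adjusted p = 0.04593 and 0.04825).

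Zm00001d015877, with parental libraries at 0.350 to 1.503 CPM, had 6.40 CPM in WTF1 replicate 1 and 1.41 CPM in replicate 2, against 0.638 and 0.653 CPM in mop1F1. Only replicate 1 of the wild-type hybrid stood above all parental libraries there. Zm00001d037956 had 0.905 to 2.80 CPM in the parents, 2.39 and 1.95 CPM in WTF1, and 0.766 and 0.422 CPM in mop1F1, so that the wild-type hybrid was within the parental range and the mutant under it. The other genes below 1 CPM in all parental libraries (Zm00001d004640, Zm00001d020030, Zm00001d025861 and Zm00001d042148) had 1.07 to 3.32 CPM in WTF1 and 0.170 to 0.691 CPM in mop1F1. Their mutant levels overlapped with the parental ones, which ran from 0.0578 to 0.925 CPM.

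**Figure D3:**
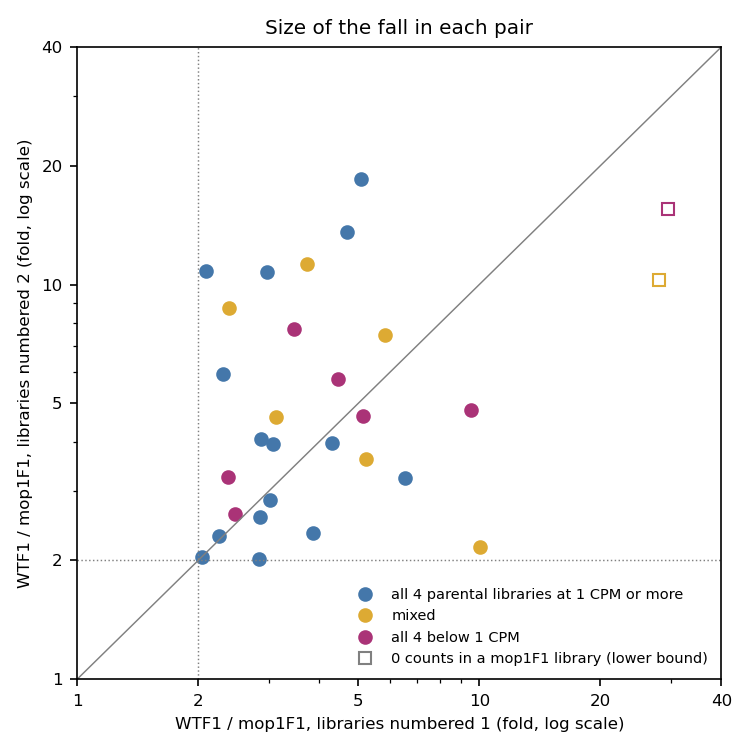
Fold by which each lowered gene was lower in mop1F1 than in WTF1, in the libraries numbered 1 (horizontal, GP1) and 2 (vertical, GP5), on log scales. Dotted lines mark 2-fold, which the rule required in both. Open squares are lower bounds that leave out the counting error of WTF1. Points are spread on both sides of the line of equal folds, 13 with the larger fold in GP1 and 16 in GP5.

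The size of the difference was compared between the GP1 and GP5 pairs as a description, since the rule chose genes on these values. The median fold was 3.46 in GP1 (quartiles 2.84 and 5.12) and 4.61 in GP5 (2.85 and 8.70), with genes at 0 counts in mop1F1 set at their bounds. The median over all IDs that could have met the rule was 1.07 and 0.994. The fold was larger in GP1 for 13 genes and in GP5 for 16. It was within 1.5 times of equal for 15 genes and more than 2 times apart for 11. More than 4-fold differences were found for 12 genes in GP1 and 16 in GP5. Within each hybrid, replicate 1 was the higher library for 19 of the 29 genes in WTF1 (48.9% of the IDs that could have met the rule) and for 21 in mop1F1 (38.1%).

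Zm00001d007445 was among those furthest apart, with 2.09-fold in GP1 and 10.8-fold in GP5. At the other end, Zm00001d013239 gave 2.04-fold in both pairs. Low counts widened many of these values: 17 of the 29 genes had under 50 counts in WTF1 replicate 1, the shallowest library, and 9 had at most 10 counts in a mop1F1 library. For Zm00001d003639 the 95% exact counting interval of the GP1 fold ran from 0.98 to 5.84 and so held 1. For Zm00001d038302 it ran from 2.68 to 3.02.

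Genes just inside and just outside the limit of 0.5 differed little. Just inside were Zm00001d037985, Zm00001d038925 and Zm00001d042148, with ratios of 0.495, 0.497 and 0.4997. Just outside were Zm00001d036987, Zm00001d031662 and Zm00001d011183, with ratios of 0.503, 0.5031 and 0.513. When the CPM were scaled by TMM factors, which moved the GP1 ratio of mop1F1 to WTF1 by 0.17 on the log2 scale and the GP5 ratio by -0.02, the rule gave 21 genes, 20 of them among the 29.

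**Figure D4:**
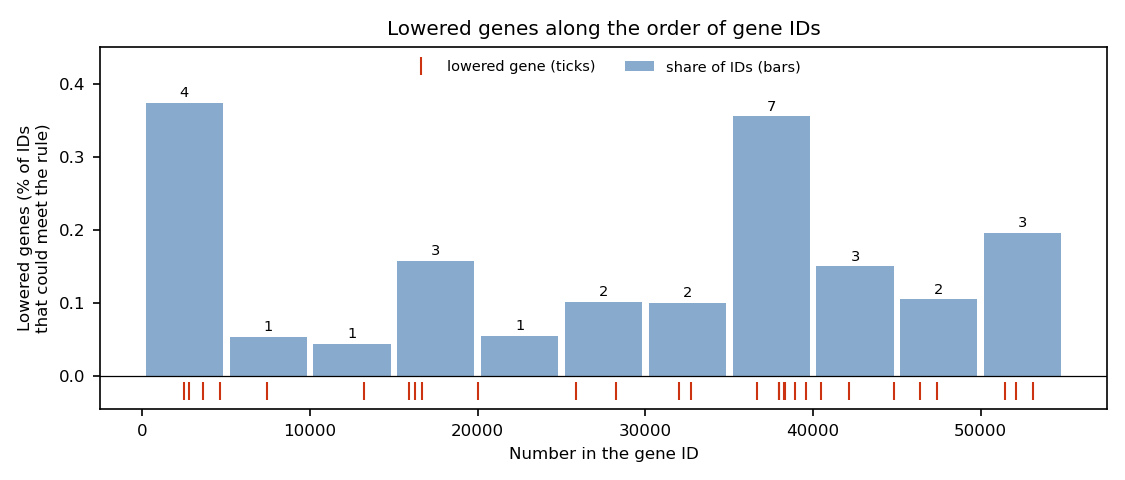
Share of IDs that met the rule in steps of 5000 ID numbers, in percent of the IDs that could have met it, with the number of lowered genes above each bar and their places as ticks. The highest bars are the first, with 4 genes, and the one from 35001 to 40000, with 7.

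The lowered genes were spread over the whole range of ID numbers, from 2469 to 53091, with at least 1 gene in each step of 5000 numbers. In maize annotations the numbers tend to run along the chromosomes, and no annotation used here could show whether these do. Neighbouring members were 21 to 5831 numbers apart, with a median of 1013, and no pair had adjacent numbers. The step from 35001 to 40000 held 7 of the 29 genes, 0.355% of its 1972 IDs. A stretch within it from 37956 to 39589, picked because it was the shortest to hold 6 members, had 0.742% of 809 IDs.

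The closest 3 genes were Zm00001d037985, Zm00001d038281 and Zm00001d038302, among 161 IDs that could have met the rule. Zm00001d038281 had 2.42 and 3.44 CPM in B73, 1.45 and 2.02 CPM in Mo17, 4.18 and 1.49 CPM in WTF1, and 0.638 and 0.461 CPM in mop1F1. Zm00001d037985 had 0.231 to 1.03 CPM in the parents, 4.95 and 1.72 CPM in WTF1, and 0.851 and 0.230 CPM in mop1F1. Both were higher in WTF1 replicate 1 than in replicate 2, unlike Zm00001d038302 described above.

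The first step of numbers, without the IDs left out, held 4 of its 1072 IDs (0.373%). Within the stretch of 378 numbers that the choice left out, 11 of 168 IDs would have met the rule (6.55%). In the 1000 numbers below them it was 2 of 440 IDs (0.455%), Zm00001d002469 and Zm00001d002759, and in the 1000 numbers above them 1 of 323 (0.31%), Zm00001d003639.

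The IDs beside the members were at equal levels in the hybrids in the median. The nearest ID on each side that could have met the rule and was no member lay at most 9 numbers away, which gave 58 flanking IDs. Of these, 11 (19%) were lower in mop1F1 in both pairs, compared with 18.9% of all 20310 IDs that could have met the rule. Their median fold of WTF1 over mop1F1 was 1.01 in GP1 and 0.9999 in GP5. A single flanking ID was more than 2-fold lower in both pairs. It was Zm00001d037958, named after its values were seen, beside Zm00001d037956, with 11.1 and 4.16 CPM in WTF1 and 5.19 and 1.88 CPM in mop1F1.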

How the data were processed

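RNA of immature ears was sequenced in 8 libraries. Each deposited file gives raw counts of 1 library per gene ID, with 5 summary rows that entered no total or test (1.29% to 10.25% of records for ambiguous reads). The submitters' processing notes name FastQC, Trimmomatic, HISAT2, HTSeq and DESeq2, with no versions. The suffix RefGen_V4 on the deposited gene IDs names the reference release. No strand setting is given in the sources used here, and overlapping genes, antisense genes and gene families may share reads. Titles gave the groups and replicate numbers, also for a B73 library whose table is numbered otherwise. Table names give the Mo17 genome for the alignment of Mo17 reads and the B73 genome for that of the hybrids.

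CPM are counts over the library's gene total. Tests of the counts used edgeR 4.0.16 (R 4.3.3) with filterByExpr, TMM scaling, group means over all 8 libraries and the quasi-likelihood F test. Benjamini-Hochberg adjustment ran over 24511 IDs, with a threshold of 0.05. SE is the size of the log2 fold change over the square root of F. The fit was tested on simulated data, drawn with the same dispersion for every ID and no shared shift of same-numbered libraries. That test does not show how the fit behaves where hybrid libraries differ as they do here. Alternatives were other scalings and filters, DESeq2 1.42.0, a replicate block, the compared groups alone and each library left out. Intervals cover counting error only.

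The genes and the tests were chosen with earlier results of these data known. The rule for named genes took members with the smallest ratio, the highest WTF1 level, a place near the limit of 0.5 or in the closest run of 3. It also took members called in either comparison in the fit of all 8 libraries. The remaining members were named after their values were seen, also where this is not said beside them. Gene lists by symbol could not be applied, since no ID had a name. Chance was not judged by exchanging single libraries between the hybrids.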

Additional observations from a re-analysis of the deposited data

Results flagged for a closer look

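Records outside the gene counts, which entered no comparison here, took a larger share in a mop1F1 library than in either WTF1 library for 3 kinds. Ambiguous records were 10.25% in mop1F1 replicate 1, against 9.70% and 1.29% in WTF1 replicates 1 and 2. For records with no feature it was 5.79% in mop1F1 replicate 2, against 4.31% and 5.24%. For records with several alignments it was 3.43% in mop1F1 replicate 2, against 3.37% and 3.09%. Their part in the levels of the lowered genes was not tested.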

How the results depend on the processing

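The count of 29 genes followed the limits of the rule: it was 52 with a wild-type minimum of 0.5 CPM and 9 with one of 5 CPM, 6 and 4 when the mutant had to be at most 1/3 or 1/4 of the wild type, 81 when the limit was applied within each replicate number, and 184 to 1230 when a hybrid library was left out. With both hybrid libraries numbered 1 left out, chosen after seeing the data, it was 1595. It stayed within 1.5 times with the left-out numbers kept (40), TMM factors (21) or DESeq2 size factors (22).

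The 2 members called between the parents became 4 with DESeq2, 7 (of 22 tested) with the parents alone, 6 without both hybrid libraries numbered 1, and 1 to 3 when any 1 library was left out. Over all IDs the 2561 calls became 3801 with DESeq2, 9334 with the parents alone, 9678 without both hybrid libraries numbered 1, and 1062 to 3859 with 1 library left out. Between the hybrids, the 0 called members became 1 without a filter, 3 with DESeq2, 12 without both libraries numbered 1 and 0 to 2 with 1 library left out (2 without mop1F1 replicate 1). The 2 calls over all IDs became 11 without a filter, 41 with DESeq2, 1866 without both libraries numbered 1, 0 to 187 with 1 library left out (187 without mop1F1 replicate 1), and 0 with the filter of 1 CPM in 2 libraries and with the compared groups alone. Called lower in mop1F1 were 5 of 32277 tested IDs without a filter and 13 of 24238 IDs with an adjusted p in DESeq2. The rule used this contrast and made every member lower, so nothing is read from the counts of called members. The cause of these changes was not tested. Without the hybrid libraries numbered 1, each hybrid has 1 library, which is assumed to vary like the parental ones.

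With the replicate number as a block, 2 members were called between the parents and 0 between the hybrids, and over all IDs 0 were called between the hybrids and 2272 between the parents. In the hybrids the number goes with the table prefix (GP1 or GP5) and the share of ambiguous records, and in the parents the block rests on the number alone. Deviations of same-numbered libraries correlated at 0.315 between WTF1 and mop1F1 and between -0.079 and 0.113 for the other pairs of groups. The log2 fold changes of Zm00001d044826 and Zm00001d047404 between the parents had the same direction in every alternative. So did those of Zm00001d039589 and Zm00001d053091 between the hybrids, but the rule had fixed their direction, so nothing is read from it. Median folds and the counts of members outside the parental range were recomputed under TMM and DESeq2 size factors alone. The members at 0 in a parent were recomputed under a limit of 3 counts alone. All of these moved by less than 1.5 times. For the median folds the scaling itself settled this. It divided every fold of the GP1 pair by 1.124 (TMM) or 1.088 (DESeq2), and of the GP5 pair by 0.9853 or 0.9867. The medians were taken over the genes chosen without these factors, so nothing is read from their small change.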
